A study of Mus musculus with 24 samples.

Results

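The 10 genes described here are interferon-inducible GTPases, 5 guanylate-binding proteins (Gbp2, Gbp3, Gbp5, Gbp6 and Gbp7) and 5 immunity-related GTPases (Gm12250, Igtp, Iigp1, Irgm1 and Irgm2), among 24346 gene symbols measured in mouse colorectal tissue. They were chosen by measured values: in an earlier look at the same libraries, Gbp2, Gbp3 and Gm12250 led the difference between KO-8-homo and KO-8-hetero tumors, and interferon-induced genes were lower in the KO-labelled tumors. Every comparison that holds KO-8-homo or KO-8-hetero tumors, and that of KO-1-hetero with WT-young tumors, is therefore given below as a description. Tests were run on tumor against normal tissue in WT-young and KO-1-hetero and between normal groups. The tumors of WT-young and KO-1-hetero were part of the earlier comparison by KO label, so of these tests only those between normal groups use no library from the choice. All 10 genes passed the filter on low values.

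Each library came from colorectal tissue of a mouse given AOM/DSS, azoxymethane (a carcinogen) with dextran sulfate sodium (a polymer that injures the colon lining), which together give colon tumors; no group went without this treatment. Titles combine a genotype word (KO or wild type), a number and zygosity word for the KO libraries (giving the names KO-8-homo, KO-8-hetero and KO-1-hetero) or an age word for the wild type (WT-young, WT-old), and the tissue, tumor or normal. The KO label refers to c-MAF, a transcription factor encoded by Maf; the title numbers, the ages and the way the allele was made are not explained, and no Cre, promoter or strain is named. There were 3 tumor libraries in each KO group, 4 in WT-young and 1 in WT-old, and 2 normal libraries in each of the 5 title groups. The normal tissue is from treated animals, not from untreated ones. Because the labels do not say which libraries came from separate animals, p-values measure the spread between these libraries, which may be partly technical.

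Maf itself did not follow its label. It was at 2.62 to 7.4 FPKM in the 9 KO-labelled tumors and at 1.63 to 2.26 FPKM in the 4 WT-young tumors, while the WT-old tumor had 7.26 FPKM. In normal tissue it was at 1.52 to 6.27 FPKM in KO-labelled libraries, 2.76 to 2.82 in WT-young and 1.37 to 2.06 in WT-old. Every KO-labelled tumor was thus above every WT-young tumor. With the WT-old tumor included, and in normal tissue, the ranges overlapped between labels. For this reason "KO-labelled" is used throughout as a name, and no direction below is evidence on loss of c-MAF. FPKM, fragments counted relative to transcript length and library size, is a level per unit of length, so it can be set side by side between genes. Relative depth, read from the step of the lowest values, ranged from 0.688 to 1.87 across the 24 libraries. Between 12074 and 13290 genes reached 1 FPKM. Epithelial markers summed to 3746 to 13055 FPKM, and the colon markers Cdx2, Vil1, Krt20 and Car1 to 442 to 14294 FPKM, in every library. Xist was at 7.38 to 49.9 FPKM in 6 libraries, all of them KO-1-hetero or KO-8-hetero, and at most 0.0719 FPKM in the other 18.

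Guanylate-binding proteins and immunity-related GTPases are families of GTPases that cells make in quantity when interferon gamma, a cytokine of T and NK cells, binds its receptor. Effector members gather on the membranes around intracellular bacteria and parasites and help to break them or to trigger inflammasomes, while the regulator members Irgm1, Irgm2 and Igtp (also called Irgm3) sit on the cell's own membranes and keep the effectors off them. In the gut these genes take part in defence of the epithelium and of macrophages, and their transcripts are a common readout of interferon exposure.

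The stretches just before the start sites are shown for 2 sequence motifs through which interferon-activated factors are known to bind. Not every stretch holds both motifs. The 10 genes rose and fell together across libraries, and whether the motifs have a part in that was not tested. RefSeq start sites on the GRCm38.p6 build, the mm10 build of the deposited tables, were available for 8 of the 10 genes; none was matched for Gbp6 or Iigp1. The sequences run 5′ to 3′ on the strand of the gene, from 170 bases before the start site to the last base before it, at chr3:142620493-142620662 for Gbp2, chr3:142559874-142560043 for Gbp3, chr3:142496764-142496933 for Gbp5, chr3:142530166-142530335 for Gbp7, chr11:58183673-58183842 for Gm12250, chr11:58199386-58199555 for Igtp, chr11:58214807-58214976 for Irgm2, all on the plus strand, and chr11:48871421-48871590 for Irgm1 on the minus strand. Capitals mark the letters GAAANNGAAA, the core of the interferon-stimulated response element, and TTCNNNGAA, the gamma-activated site, on either strand.
Gbp2: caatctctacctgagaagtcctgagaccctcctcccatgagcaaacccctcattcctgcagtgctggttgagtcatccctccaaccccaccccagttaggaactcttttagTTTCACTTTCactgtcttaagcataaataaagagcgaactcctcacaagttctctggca
Gbp3: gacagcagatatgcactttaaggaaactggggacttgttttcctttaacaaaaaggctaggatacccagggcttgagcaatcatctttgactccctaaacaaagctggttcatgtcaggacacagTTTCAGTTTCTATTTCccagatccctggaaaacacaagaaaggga
Gbp5: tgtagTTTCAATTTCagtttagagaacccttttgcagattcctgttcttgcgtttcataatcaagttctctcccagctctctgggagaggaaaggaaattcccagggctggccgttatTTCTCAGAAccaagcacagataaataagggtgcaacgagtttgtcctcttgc
Gbp7: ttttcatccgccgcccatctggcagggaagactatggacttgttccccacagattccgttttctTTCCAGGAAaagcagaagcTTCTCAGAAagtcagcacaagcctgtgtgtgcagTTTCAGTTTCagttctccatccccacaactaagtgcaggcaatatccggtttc
Gm12250: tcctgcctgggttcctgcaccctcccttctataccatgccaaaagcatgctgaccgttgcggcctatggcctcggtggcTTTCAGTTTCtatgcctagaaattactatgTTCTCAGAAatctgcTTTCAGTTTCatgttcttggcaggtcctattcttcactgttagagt
Igtp: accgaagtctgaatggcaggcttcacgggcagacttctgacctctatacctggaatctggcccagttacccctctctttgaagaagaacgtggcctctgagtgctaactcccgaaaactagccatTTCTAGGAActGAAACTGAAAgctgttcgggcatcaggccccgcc
Irgm1: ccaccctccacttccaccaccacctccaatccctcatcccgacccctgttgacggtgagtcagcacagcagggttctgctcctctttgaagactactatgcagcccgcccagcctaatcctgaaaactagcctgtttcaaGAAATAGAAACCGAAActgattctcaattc
Irgm2: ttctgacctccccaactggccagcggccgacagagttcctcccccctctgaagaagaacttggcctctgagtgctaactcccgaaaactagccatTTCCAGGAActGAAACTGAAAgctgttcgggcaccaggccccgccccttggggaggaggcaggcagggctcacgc

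In the 300-base windows of these start sites (250 bases before to 50 after), the response element core was found in 8 of the 8 genes, and in 8 of their 9 windows, since Gbp3 has 2 start sites and the motif lies before the first. Among all 32851 windows of the same length, 3.44% held it. The gamma-activated site was found in 5 genes (Gbp5, Gbp7, Gm12250, Igtp and Irgm2), against 8.3% of all windows, and both motifs in those same 5, against 0.454%. No response element core overlapped a gamma-activated site. Gm12250 held the core at 2 separate places, with a gamma-activated site between them. In Gbp3 and Irgm1 the 2 matches ran into each other and shared 4 letters. Igtp and Irgm2, neighbours on the same strand, shared a run of 61 identical bases in these windows. A match describes these letters and not a bound factor.

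Gbp5, Gbp7, Gbp3 and Gbp2 lie in this order in a single cluster (chr3:142496934-142522344, chr3:142530336-142550151, chr3:142560016-142573213 and chr3:142620663-142638008), and Gbp6 lies at chr5:105270702-105295871. Igtp (chr11:58199556-58207592), Irgm2 (chr11:58214977-58222783) and Gm12250 (chr11:58183843-58190198) are neighbours, and Irgm1 is further along the same chromosome at chr11:48865245-48871420. Gm12250, also called Irgb10, is protein-coding in RefSeq and a processed pseudogene in the GENCODE annotation. The GENCODE model of Irgm2 starts inside Igtp on the same strand, while the RefSeq positions of the pair do not overlap. The annotation used by the authors is not given. Under the GENCODE model, reads of the pair could not be fully told apart. Members of both families also resemble each other in sequence, and the way the authors' quantification divided shared fragments is not given in the sources used here, so the level of a single member is less certain than the level of the group.

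In normal tissue the GTPases stood at low to moderate levels. Over the 10 normal libraries, Irgm1 was highest, with a median of 23.7 FPKM and a range of 10.4 to 36.1, followed by Gbp2 with 14.9 (10.3 to 20.5), Igtp with 10.8 (8.01 to 15.3) and Irgm2 with 9.73 (6.35 to 14.1). Gbp3 had 3.89 (2.17 to 7.47), Iigp1 3.65 (2.9 to 7.08), Gbp6 2.12 (0.796 to 3.58), Gbp7 2.05 (0.546 to 3.01), Gbp5 1.84 (1.09 to 2.5) and Gm12250 1.45 (0.8 to 3.33). The ranges of neighbours in this order overlapped throughout. In the 4 WT-young tumors the order differed: Gbp2 came first with a median of 115 FPKM (107 to 284), then Irgm1 with 78.1 (74.5 to 96.7), Igtp with 67.1 (61.6 to 85.2) and Iigp1 with 64 (60.1 to 71). Below them were Irgm2 with 38.3 (33.2 to 54), Gbp3 with 31 (27.5 to 38.7), Gbp6 with 16.7 (16.2 to 19.7), Gm12250 with 13.4 (12.5 to 20.9), Gbp7 with 9.99 (8.27 to 14.6) and Gbp5 with 8.69 (7.27 to 9.87). Gbp2 did not overlap Irgm1 in these tumors, Iigp1 did not overlap Irgm2, and Gbp3 did not overlap Gbp6, whereas Irgm1 overlapped Igtp, Igtp overlapped Iigp1, Irgm2 overlapped Gbp3, Gbp6 overlapped Gm12250, Gm12250 overlapped Gbp7 and Gbp7 overlapped Gbp5.

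**Figure D1:**
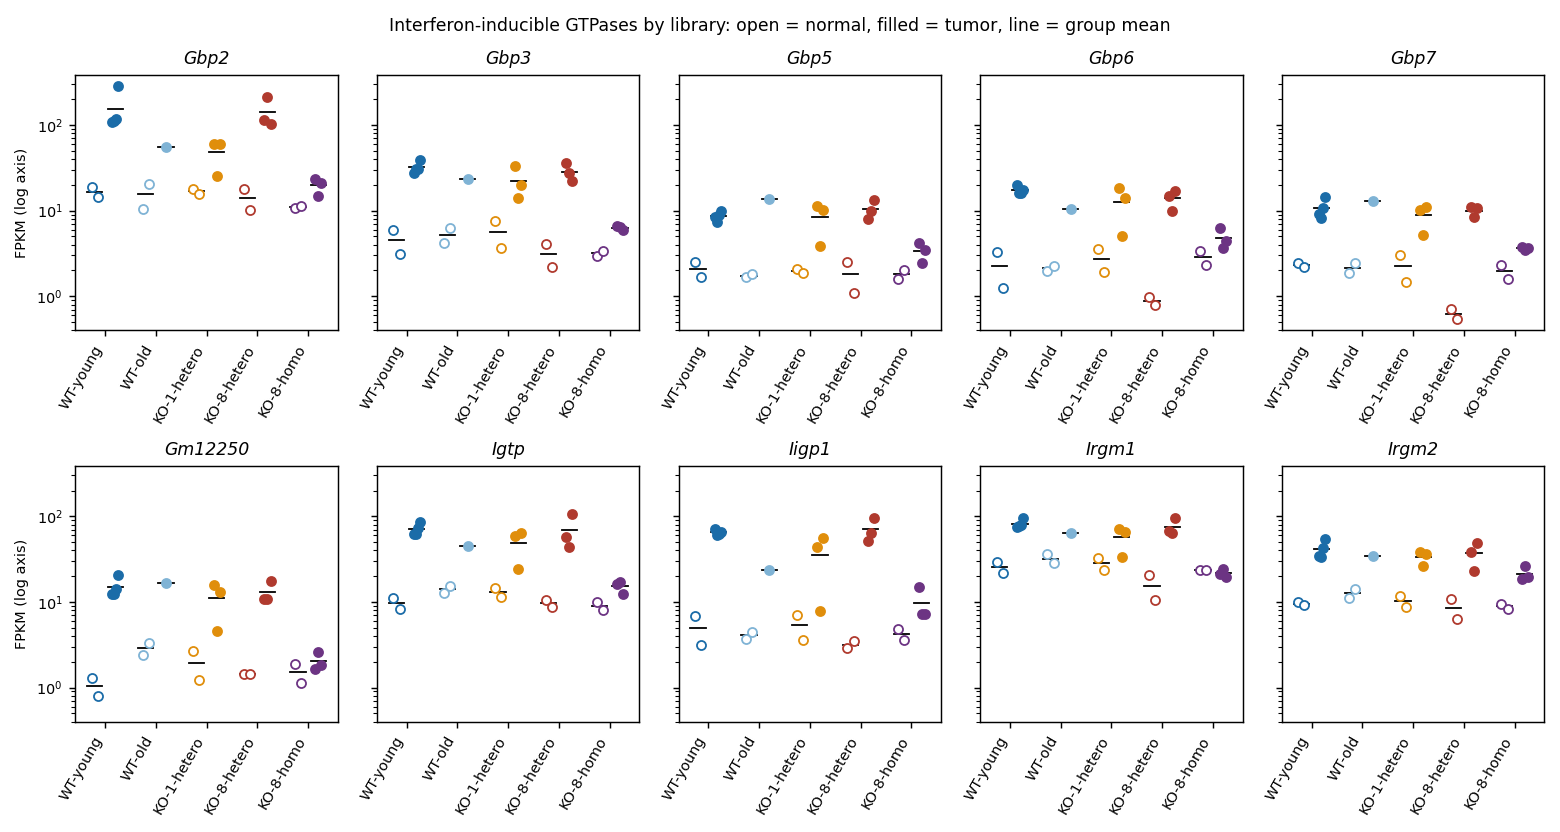
Level of each GTPase in FPKM on a log axis, 1 point per library (open, normal tissue; filled, tumor), with a line at each group mean, for the 5 title groups. In Gbp2, tumors other than KO-8-homo lie between 25.3 and 284 FPKM, the KO-8-homo tumors between 15 and 23.7, and the normal libraries between 10.3 and 20.5.

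The comparison of tumor with normal tissue in WT-young asked whether the GTPases differ with the tumor in animals without the KO label. All 10 were higher in the tumors, in 4 of 4 tumors above both normal libraries. Of the 13799 genes that reached 1 FPKM in at least 4 libraries, 13.7% were called higher in this comparison (limma, Benjamini-Hochberg adjusted p below 0.05), and 25.3% had tumor libraries that all lay above the normal ones. The median difference of the 10 GTPases was 2.59 on the log2(FPKM + 1) scale, on which low genes appear to change less than they did, against 0.02 over all genes tested. By limma, 10 of 10 GTPases were called. These tumors took part in the earlier comparison by KO label, so nothing is read from the excess over the 13.7% of all genes.

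Among the guanylate-binding proteins, Gbp2 was at 107, 111, 119 and 284 FPKM in the tumors and at 18.9 and 14.3 in the normal libraries. Tumor 4 was the highest by a wide margin, and the groups did not overlap. The difference was 3.03 (SE 0.425, limma adjusted p = 1.76e-04). Gbp3, its neighbour, was at 27.5, 31.0, 30.9 and 38.7 FPKM in the tumors and at 5.87 and 3.10 in the normal libraries, a tight group well above the other. It differed by 2.63 (SE 0.311, limma adjusted p = 5.05e-05). Gbp6 went from 3.27 and 1.24 FPKM in normal tissue to 16.2 to 19.7 in the tumors. Gbp7 went from 2.44 and 2.21 to 8.27 to 14.6. Gbp5, known for its part in assembling the Nlrp3 inflammasome, went from 2.49 and 1.66 to 7.27 to 9.87, a difference of 1.65 (SE 0.307, limma adjusted p = 0.00118).

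Among the immunity-related GTPases, the effector Iigp1 (also called Irga6, chr18:60373616-60392634) was at 71.0, 60.1, 62.1 and 65.8 FPKM in WT-young tumors and at 6.81 and 3.10 in normal tissue. The tumors differed from each other by a factor of 1.18 at most, their mean was 13.1-fold higher, and the difference was 3.54 (SE 0.526, limma adjusted p = 2.55e-04). The other effector, Gm12250, was at 12.5, 12.5, 14.3 and 20.9 FPKM in the tumors and at 1.31 and 0.800 in normal tissue. Its mean was 14.3-fold higher in the tumors, and the difference was 2.95 (SE 0.350, limma adjusted p = 5.24e-05). Of the regulators, Igtp was at 61.8, 61.6, 72.5 and 85.2 FPKM in the tumors against 11.1 and 8.17, a 7.31-fold difference of the means. Irgm2 was at 34.4, 33.2, 42.2 and 54.0 FPKM against 9.90 and 9.19, a 4.29-fold difference. Irgm1, the highest of the 10 in normal tissue, was at 74.5, 77.5, 78.7 and 96.7 against 29.0 and 21.5, a 3.24-fold difference. The regulators and effectors thus moved in the same direction by different amounts, and no group of libraries overlapped.

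Every one of the 10 calls in WT-young held under each alternative that was run, including each library left out. Beside them, 3 of the 6 T and NK cell markers measured were called higher in the same tumors, as was 1 of 6 macrophage markers (Cd14), and the T and NK cell sum ranged from 12.1 to 34.3 FPKM against 3.27 to 13 in normal tissue, while all 4 smooth muscle markers were called lower, with sums of 78 to 194 against 1002 to 3344 FPKM. Of all 13799 genes tested, 1884 were called higher and 1720 lower in the WT-young tumors. Cd8a was at 0.43 to 2.44 FPKM in these tumors and Gzmb at 2.27 to 9.44. In bulk tissue, fewer cells of a type and less RNA per cell cannot be told apart, and the part of cell composition in the GTPase levels was not tested.

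In KO-1-hetero the 10 GTPases were again higher in the tumors than in normal tissue, 10 of 10 called, where 6.93% of all genes tested were called higher. All 3 tumors lay above both normal libraries for each of the 10, which held for 30.4% of all genes. The median difference was 1.67 against 0.01 over all genes. Iigp1 was at 43.9, 7.84 and 55.1 FPKM in the tumors and at 7.08 and 3.64 in normal tissue, with a difference of 2.2 (SE 0.554, limma adjusted p = 0.0184). Tumor 2 barely exceeded the higher normal library, while the other 2 tumors were far above it. Gbp2 was at 59.3, 25.3 and 60.3 FPKM against 18 and 15.5, with a difference of 1.38 (SE 0.449, limma adjusted p = 0.0488), again with tumor 2 the lowest. Gbp7, at 10.3, 5.21 and 11.1 FPKM against 3.01 and 1.47, had the smallest adjusted p of the 10, 0.0033 by limma, with a difference of 1.59 (SE 0.270). Irgm1, at 71.1, 33.3 and 65.2 FPKM against 32.7 and 23.5, differed by 0.93 (SE 0.297, limma adjusted p = 0.0459), and its tumor 2 lay next to normal library 1. In the same comparison 3 of 6 macrophage markers (Cd68, Csf1r and C1qa), 3 of 6 T and NK cell markers and 1 of 4 fibroblast markers (Col3a1) were called higher. Macrophage sums were 901 to 1280 FPKM against 391 to 806 and T and NK cell sums 27.6 to 63.6 against 8.91 to 17.8; their part in the GTPase levels was not tested.

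These KO-1-hetero calls rested on few libraries. Those of Gbp2 and Irgm1 were each lost in 9 of 13 alternatives, with limma adjusted p from 0.0247 to 0.219 for Gbp2 and from 0.0139 to 0.286 for Irgm1, and that of Iigp1 in 5 of 13 (up to 0.165). Without normal library 2, which was the lower of the pair for every member, 0 of the 10 passed by limma, although all 10 differences stayed positive and lay between 0.70 for Irgm1 and 1.80 for Iigp1. Without tumor 1, 6 of 10 passed, and 6 of 10 passed when only the KO-1-hetero libraries were fitted. Xist was high in tumor 3 and both normal libraries of this group and low in tumors 1 and 2, and 8 of 10 passed with a term for it.

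KO-1-hetero tumor 2 was the lowest of its group in each of the 10 GTPases, though for Gbp3 it lay nearer to tumor 3 than tumor 3 did to tumor 1. Gbp3 was at 14.2 FPKM there against 33.0 and 19.9 in the other 2 tumors, Gbp5 at 3.86 against 11.4 and 10.2, and Gbp6 at 5.10 against 18.5 and 14.1. Gm12250 was at 4.62 against 15.9 and 12.9, Igtp at 24.3 against 58.9 and 63.7, and Irgm2 at 26.4 against 38.7 and 35.9. The mean log2(FPKM + 1) of the 10 GTPases placed this library at 3.63, just above the KO-8-homo tumors (3.10, 3.15 and 3.34) and below the other 10 tumors (4.71 to 5.44). Normal libraries lay between 2.08 and 3.07 on the same measure. No tumor lay between 3.63 and 4.71.

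The tumor-normal change itself was then compared between KO-1-hetero and WT-young, with a direction to which the choice of the genes by KO label had contributed. It was smaller in KO-1-hetero for each of the 10, by 0.10 for Gbp5 to 1.65 for Gbp2 on the log2 scale, but 0 of 10 passed by limma, where 0.0145% of all genes passed, and 1 of 10 had an unadjusted p below 0.05. Gbp2 had a difference of changes of -1.65 (SE 0.618, limma adjusted p = 0.224). A difference between the groups in how much the GTPases rose was therefore not shown; the standard errors were 0.372 to 0.764.

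Compared directly with WT-young tumors, KO-1-hetero tumors had lower mean log2 levels of all 10, with a median of -0.58 against -0.02 over all genes. This direction was part of how the genes were chosen, so the values are a description. Gbp2 was at 59.3, 25.3 and 60.3 FPKM in KO-1-hetero and at 107 to 284 in WT-young, without overlap, a difference of -1.63 (SE 0.375). It was the only 1 of the 10 past the threshold, where 2.88% of all genes were in either direction, and nothing is read from that; it was no longer past it in 6 of the 7 fits that left out a library. Iigp1 differed by -1.22 (SE 0.463), and its KO-1-hetero tumors 1 and 3 (43.9 and 55.1 FPKM) lay a little below the lowest WT-young tumor at 60.1. Without KO-1-hetero tumor 2, Gbp5 and Gbp7 were higher than in WT-young, by 0.30 and 0.03. B and plasma cell markers were higher in these KO-1-hetero tumors (3 of 4 called; 763 to 883 FPKM summed against 101 to 305), as were 2 of 4 smooth muscle markers, 1 of 6 T and NK cell markers (Cd3e) and 1 of 6 macrophage markers (Lyz2; 901 to 1280 FPKM summed against 342 to 548); their part in the GTPase levels was not tested.

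**Figure D2:**
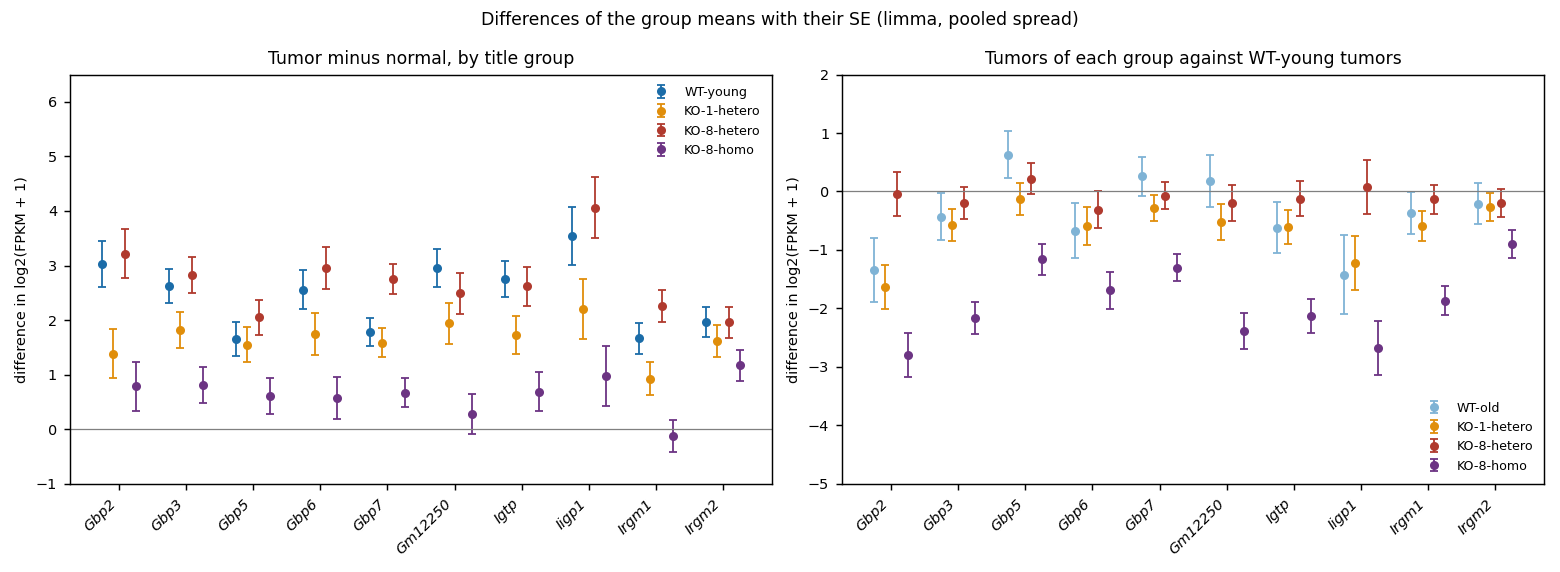
Differences in log2(FPKM + 1) with their SE from limma, for tumor minus normal in 4 title groups (left) and for tumors of each group against WT-young tumors (right; the SE of the lone WT-old tumor assumes that it varies like the other groups), 1 column of points per GTPase. In KO-8-homo the tumor-normal difference runs from -0.12 for Irgm1 to 1.17 for Irgm2, and in KO-8-hetero from 1.96 for Irgm2 to 4.06 for Iigp1; both of these groups are shown as a description, since they took part in the choice of the genes.

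The KO-8-homo tumors are the libraries in which the GTPases were noticed, and their values are given without a test. Gbp2 was at 23.7, 15 and 20.9 FPKM in the KO-8-homo tumors and at 113, 215 and 103 in the KO-8-hetero tumors. Gbp3 was at 6.61, 6.42 and 5.92 FPKM against 35.5, 27.2 and 22.0. Gm12250 was at 1.66, 2.60 and 1.85 FPKM against 10.8, 10.7 and 17.7. For these 3 genes each KO-8-homo tumor was several-fold below each KO-8-hetero tumor, and KO-8-homo spread little. Ranges did not overlap, with KO-8-homo lower, for 9 of 10 members, where 4.76% of all genes had that pattern; the share was part of what chose the genes, and nothing is read from it.

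The effector Iigp1 was at 15.1, 7.16 and 7.16 FPKM in KO-8-homo tumors and at 52.0, 63.9 and 95.6 in KO-8-hetero tumors. Among the regulators, Igtp was at 16.4, 16.9 and 12.3 FPKM against 56.8, 44.0 and 105, and Irgm1 at 21.1, 24.3 and 19.7 against 66.8, 64.5 and 94.8. Irgm2 was the exception: it was at 18.7, 26.2 and 19.3 FPKM against 38.7, 22.8 and 49.0, so that KO-8-homo tumor 2 exceeded KO-8-hetero tumor 2. The difference in log2(FPKM + 1) ran from -2.76 for Iigp1 and -2.74 for Gbp2 to -0.71 for Irgm2, with a median of -1.85 and SEs of 0.241 to 0.495.

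Set beside the WT-young tumors, the KO-8-homo tumors were lower for all 10 without overlap, a pattern that 11.4% of all genes had, with a median of -2.0. The KO-8-hetero tumors stood close to WT-young, between -0.31 for Gbp6 and 0.22 for Gbp5 (SEs 0.226 to 0.463). These comparisons share the WT-young tumors, so they are not independent of each other. In KO-8-homo the ratio of tumor to normal means was 0.92 for Irgm1, 1.36 for Gm12250 and 1.67 to 2.41 for the other 8. In KO-8-hetero it was 4.32 for Irgm2 to 22.2 for Iigp1. Tumor libraries lay above normal ones without overlap for 8 of 10 members in KO-8-homo, where 36.0% of all genes did so, and for 10 of 10 in KO-8-hetero, where 26.0% did. The 2 exceptions in KO-8-homo were Gm12250 and Irgm1, and Irgm1 was at 23.9 and 23.3 FPKM in the normal tissue of that group.

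T and NK cell markers summed to 15.7 to 20.5 FPKM there, within the 10.7 to 29.5 of KO-8-hetero and the 12.1 to 34.3 of WT-young tumors. Macrophage markers summed to 789 to 1953 FPKM against 514 to 783 and 342 to 548. Epithelial markers summed to 4311 to 5088 against 3920 to 7793 and 5521 to 9441. The T and NK cell sum covered genes that went different ways against WT-young tumors. On the log2 scale Nkg7 differed by -1.56 (SE 0.453), Cd8a by -0.52 and Gzmb by -0.31. Cd4 differed by 0.55 and Cd3g by 0.03, and Cd3e hardly differed. The macrophage sum was carried by Lyz2, at 555 to 1589 FPKM in KO-8-homo against 332 to 552 in KO-8-hetero tumors, while the ranges of the other 5 markers overlapped. The macrophage sum was 901 to 1280 FPKM in KO-1-hetero tumors and 1725 in the WT-old tumor. The part of these cell types was not tested.

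The only WT-old tumor, a library without a replicate, had Gbp2 at 55.1 FPKM, Gbp3 at 23.3, Gbp6 at 10.5, Igtp at 45, Iigp1 at 23.5 and Irgm1 at 63, below all 4 WT-young tumors. It had Gbp5 at 13.8 FPKM, above all 4, and Gbp7 at 12.8, Gm12250 at 16.8 and Irgm2 at 34.6, within their range. The 2 normal WT-old libraries had Gm12250 at 2.43 and 3.33 FPKM, above the 1.31 and 0.800 of WT-young. B and plasma cell markers summed to 1406 FPKM and T and NK cell markers to 73.2 FPKM in the WT-old tumor, the highest of the 14 tumors. The title group and this single library cannot be told apart.

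In normal tissue the zygosity contrast was tested in libraries that had no part in choosing the genes. KO-8-homo against KO-8-hetero gave 0 of 10 by limma, where 10.6% of all genes were called, and 2 of 10 had an unadjusted p below 0.05. The median difference was 0.07, with 8 above 0 and 2 below, whereas all 10 had been below 0 in the tumors. Gbp7 was at 2.33 and 1.58 FPKM in KO-8-homo and at 0.705 and 0.546 in KO-8-hetero, a difference of 0.85 (SE 0.296, limma adjusted p = 0.07). Gbp6 was at 3.40 and 2.32 FPKM against 0.974 and 0.796, a difference of 1.02 (SE 0.419, limma adjusted p = 0.113). Both pairs were separate, with KO-8-homo higher, which is opposite in sign to the tumors. Colon markers summed to 6705 to 6876 FPKM in KO-8-homo normal tissue against 1923 to 2172 in KO-8-hetero. B and plasma cell markers summed to 1095 to 1140 FPKM against 135 to 309. Epithelial markers went the other way, with 6586 to 7135 FPKM against 8670 to 13055. The part of tissue composition in this contrast was not tested.

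Irgm1 was at 23.9 and 23.3 FPKM in KO-8-homo normal tissue against 20.5 and 10.4 in KO-8-hetero, a difference of 0.65 (SE 0.325, limma adjusted p = 0.188). Including Iigp1, 4 of 10 members were higher in KO-8-homo without overlap, where 27.1% of all genes were, so this share is near the background with 2 libraries a group. With a pseudocount of 0.1, Gbp6 and Gbp7 passed by limma (adjusted p 0.0499 and 0.0175). Leaving out KO-8-hetero normal library 1 raised the separate members from 4 to 8 and made Irgm1 pass (adjusted p = 0.0264 by limma). Xist was high in both KO-8-hetero normal libraries and low in both KO-8-homo ones. Ddx3y went the other way, at 0.0454 and 0.0427 FPKM in KO-8-hetero and at 10.3 and 10.9 in KO-8-homo. Zygosity and sex, as read from these genes, therefore cannot be told apart in this contrast. With a term for Xist 0 of 10 passed, but only tumor groups held both Xist states. The term thus rests on tumors, and no conclusion is drawn from it.

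All KO-labelled against all WT-labelled normal tissue gave differences of -0.39 (Gbp7 and Irgm1) to -0.03 (Gbp5) with 10 of 10 below 0. By limma 0 of 10 passed, and 0 of 10 had an unadjusted p below 0.05; 0.0507% of all genes passed.

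The 10 GTPases rose and fell together from library to library. Over the 14 tumors, the 45 pairs of members had a median Pearson correlation of log2(FPKM + 1) of 0.88, from 0.65 for Gbp2 with Irgm2 to 0.99 for Igtp with Irgm1. Over the 11 tumors outside KO-8-homo the median was 0.71, and over the 10 normal libraries it was 0.57, with a lowest value of -0.03 for Gbp5 with Gm12250. After each library was set against its own group mean (23 libraries), the median was 0.68 and the highest pair was Gm12250 with Igtp at 0.89. These values describe libraries that share tissue composition and scaling, and Igtp may also share fragments with Irgm2. Gbp2 and Irgm2 were the pair least alike in 4 of the 5 sets of libraries: Gbp2 spanned 15 to 284 FPKM over the tumors, an 18.9-fold range, and Irgm2 18.7 to 54, a 2.88-fold range.

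Other GTPases of the 2 families were listed as 18 symbols, of which 17 were in the tables and 13 passed the filter. In WT-young tumors 9 of 13 were called higher by limma and 0 lower (median 1.48), and in KO-1-hetero tumors 10 of 13 and 0 (median 1.13). These shares stand beside 13.7% and 6.93% of all genes. In WT-young, the tandem effectors Tgtp1 and Tgtp2 had the largest differences of the list on the log2(FPKM + 1) scale. Tgtp1 was at 25.6, 27.8, 23.2 and 24.6 FPKM in WT-young tumors and at 1.06 and 0.593 in normal tissue, a difference of 3.86 (SE 0.481, limma adjusted p = 7.23e-05). Tgtp2 was at 23.1, 20.0, 20.1 and 20.2 FPKM against 2.33 and 0.954, a difference of 3.09 (SE 0.358, limma adjusted p = 4.23e-05). Neither overlapped between tissues, and the 2 genes are near-identical copies whose split is uncertain.

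In KO-1-hetero tumor 2, Tgtp1 had 1.86 FPKM against 18.2 and 12.7 in the other 2 tumors, and it had 4.28, 2.18 and 1.71 in KO-8-homo tumors against 23.0, 23.3 and 26.9 in KO-8-hetero. The same libraries were thus low in Tgtp1 as in the 10 members. Gbp4 followed, with 5.60, 3.97 and 4.15 FPKM in KO-8-homo tumors against 15.7, 12.2 and 17.4. Gbp9 was closer, with 8.17, 5.75 and 6.55 against 19.5, 7.14 and 8.14, and those ranges overlapped. Some relatives moved less. Irgq, a divergent family member called higher in KO-1-hetero tumors, was at 6.88 to 9.74 FPKM in KO-8-homo tumors and 6.17 to 7.60 in WT-young tumors. Gbp2b stayed at 0.11 to 1.67 FPKM in all tumors. The gene 9930111J21Rik1 was at 17.4 FPKM in the WT-old tumor, above the 1.37 to 4.52 of the other 13. Gbp11, Gvin1, Irgc1 and 9930111J21Rik2 did not reach the filter.

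**Figure D3:**
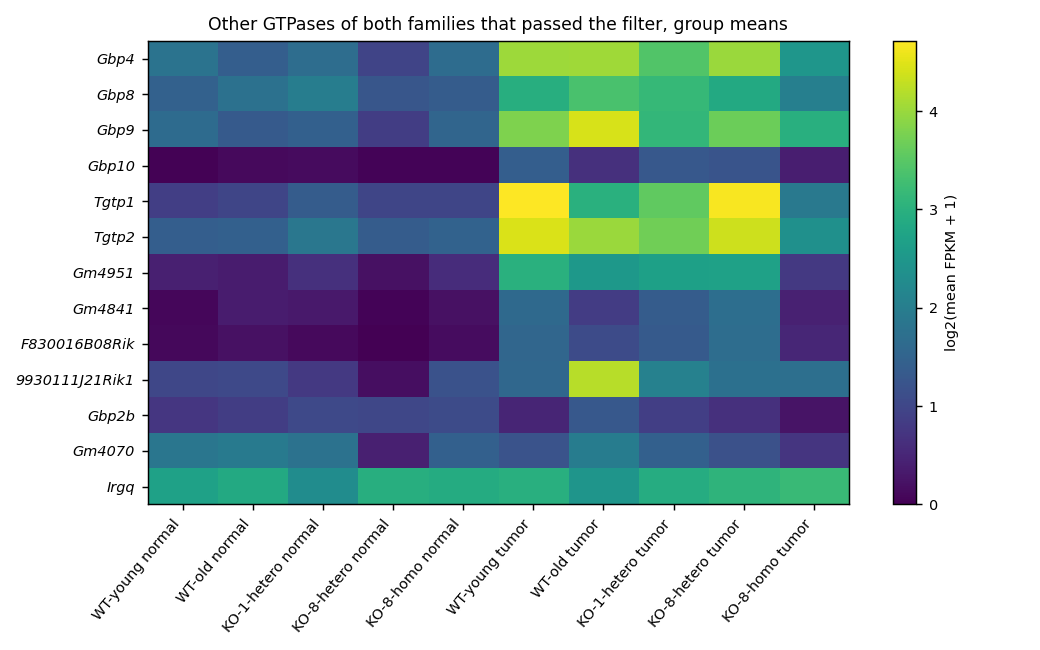
Group means of the 13 other GTPases of both families that passed the filter, as log2(mean FPKM + 1) by colour, with normal groups on the left and tumors on the right. Tgtp1 and Tgtp2 reach the top of the scale in WT-young and KO-8-hetero tumors, while the libraries of Irgq lie between 3.08 and 9.74 FPKM.

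The ligand of the pathway, Ifng, encodes interferon gamma and was near the limit of the tables. It was at 0.421, 0.428, 0.565 and 1.03 FPKM in WT-young tumors, at 0.340, 0.391 and 1.08 in KO-8-hetero tumors and at 0.585, 0.0622 and 1.06 in KO-1-hetero tumors. In KO-8-homo tumors it was at 0.184, 0.0855 and 0.0400, below every WT-young and KO-8-hetero tumor. KO-1-hetero tumor 2 was again low. Ifng did not pass the filter, so it was not tested, and the counts behind these values are unknown. Ifnb1, a type I interferon, was listed at 0 in 23 libraries and at 0.0457 FPKM in the WT-old tumor.

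The receptor chains were not called in any tested comparison. Ifngr1 was at 90.2 to 173 FPKM in WT-young tumors against 121 and 230 in normal tissue (difference -0.48, limma adjusted p = 0.196), and at 103 to 113 in KO-8-homo tumors. Ifngr2, the other chain, was at 97.8 to 108 FPKM in WT-young and 85.6 to 91.1 in KO-8-homo tumors. In the list of interferon gamma signalling, 3 of 11 tested genes were called higher and 0 lower in WT-young tumors and 2 of 11 higher and 0 lower in KO-1-hetero tumors, by limma, beside 13.7% and 6.93% of all genes called higher. Socs1, a feedback inhibitor of the pathway, was among those higher in WT-young (difference 1.27, limma adjusted p = 0.0145). Irf1, an interferon-induced transcription factor, was at 58.3, 60.8 and 63.0 FPKM in KO-8-homo tumors, below all other 11 tumors (65.9 to 190) and also below that group's own normal tissue (86.8 and 74.2).

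Interferon-induced genes outside the GTPases were also higher in tumors than in normal tissue. The list, which includes Ifi47, itself an immunity-related GTPase, had 24 of 28 tested genes called higher in WT-young tumors and 19 of 28 in KO-1-hetero tumors by limma, with 0 lower in either, beside 13.7% and 6.93% of all genes called higher. Ido1, which breaks down tryptophan, was at 68.3, 59.4, 76.3 and 117 FPKM in WT-young tumors against 2.79 and 2.92 in normal tissue, a difference of 4.35 (SE 0.649, limma adjusted p = 2.63e-04). The chemokine Cxcl9 was at 41.0, 48.1, 31.6 and 19.7 FPKM against 1.35 and 0.325, a difference of 4.28 (SE 0.602, limma adjusted p = 1.76e-04). No library overlapped between tissues for either gene. As a description, all 28 genes were lower in KO-8-homo than in KO-8-hetero tumors (median -0.90) and lower than in WT-young tumors (median -1.44), where the median over all genes was 0.01 and 0.00. This list was chosen with the KO-labelled result known and overlaps in content with the one that led to it.

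Not all interferon-induced genes shared the order of the tumors. In the WT-old against WT-young tumors, 22 of the 28 were above 0 (median 0.62) while 7 of the 10 members were below 0 (median -0.40). In KO-1-hetero against WT-young tumors 11 of 28 were above 0 and 0 of 10 members. That direction was part of how the members were chosen, so nothing is read from the contrast between these 2 counts. Of the 13 other GTPases of the families that were tested, 4 were above 0 in KO-1-hetero against WT-young tumors. KO-1-hetero tumor 2, low in the GTPases, had Cxcl9 at 6.78 FPKM against 57.4 and 48.7 in the other 2 tumors and Ido1 at 4.87 against 45 and 61.7. In the same library Isg15, a ubiquitin-like protein, was at 68.4 FPKM between 126 and 37.2, Usp18, which removes Isg15, at 24.8 between 29.4 and 10, and Irf7 at 89.3 between 142 and 55.2. These genes were picked after their values were seen, and another interferon-induced gene, Ifit2, was at 18.5 FPKM there against 32.4 and 18.5. In the WT-old tumor, with a mean of 4.71 for the members, Ido1 was at 5.22 FPKM and Cxcl9 at 10.9. In KO-8-homo tumors Usp18 was at 8.21, 15.8 and 12.2 FPKM, within the 5.43 to 23.7 of KO-8-hetero tumors. By limma, the type I and III signalling list had 6 of 16 called higher and 1 lower (Mavs) in WT-young tumors. In KO-1-hetero tumors it had 8 of 16 higher and 0 lower. Of all genes, 13.7% and 6.93% were called higher, and 1720 and 994 of 13799 lower.

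**Figure D4:**
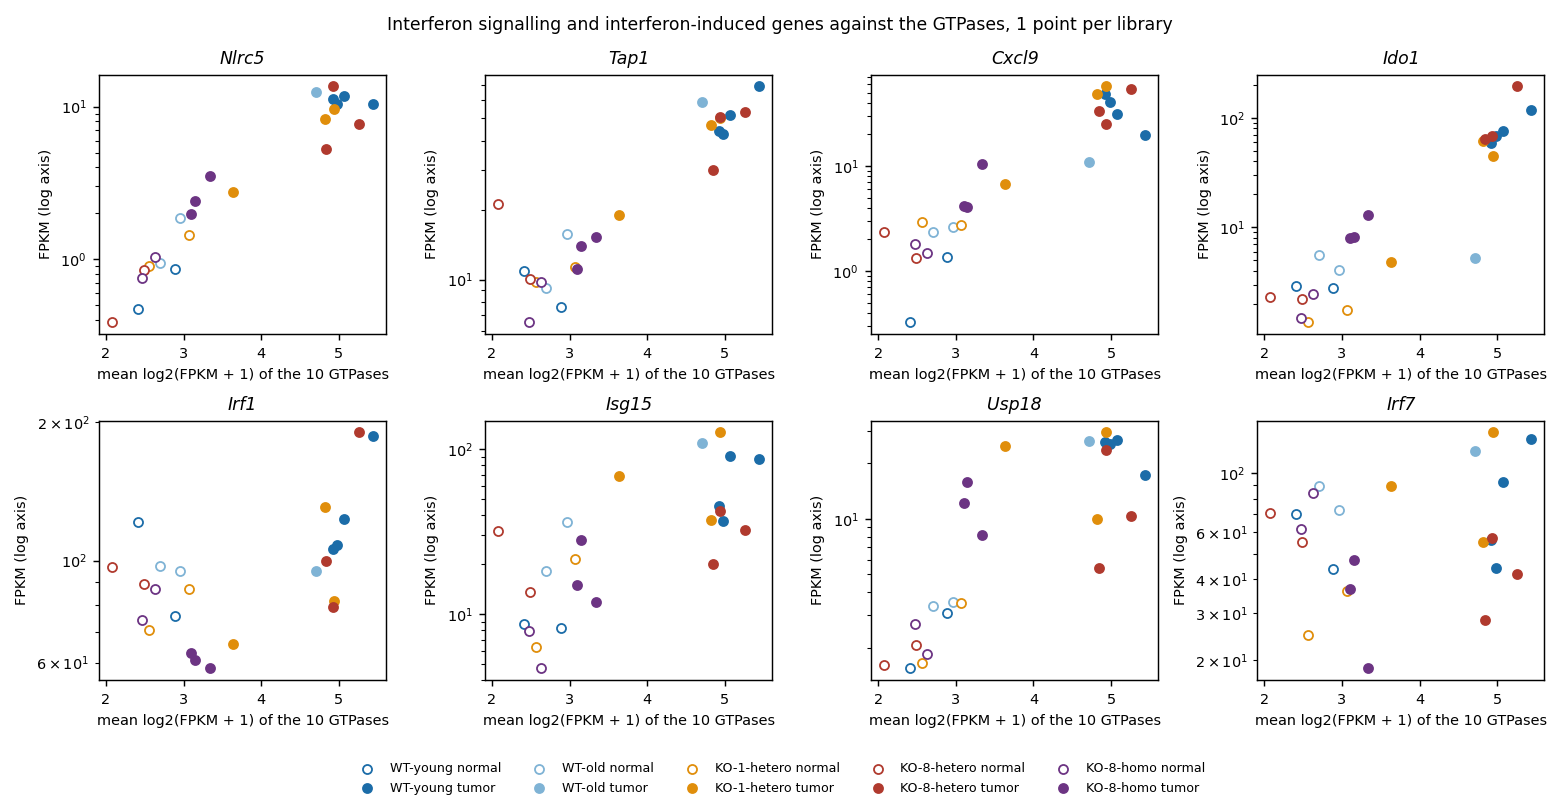
FPKM of 8 interferon pathway genes on a log axis against the mean log2(FPKM + 1) of the 10 GTPases, 1 point per library (open, normal; filled, tumor), coloured by title group. Nlrc5 rises with the GTPases in both tissues and Tap1 among the tumors. KO-1-hetero tumor 2 lies at 3.63 on the horizontal axis, and its Isg15, Usp18 and Irf7 lie between those of the other tumors of its group. Tap1, Isg15, Usp18 and Irf7 were added after their values were seen.

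Immunity-related GTPases and guanylate-binding proteins are placed on membranes with help of the autophagy conjugation proteins, and they act on inflammasomes, so both groups were listed. Of 13 tested autophagy conjugation genes, 1 was called higher in WT-young tumors, Ubd, a ubiquitin-like gene that is itself induced by interferon gamma, and 4 lower (Gabarap, Gabarapl1, Gabarapl2 and Map1lc3a). In KO-1-hetero, Ubd was higher and Atg5, Gabarap and Gabarapl2 were lower. Of all 13799 genes tested, 1720 were called lower in WT-young tumors and 994 in KO-1-hetero tumors. Gabarap was at 225 to 253 FPKM in WT-young tumors against 366 and 375 in normal tissue (limma adjusted p = 0.0236), and at 226 to 233 in KO-8-homo tumors, so it did not follow the GTPases between tumor groups. Atg5 was at 20.3 to 23.4 FPKM in WT-young tumors and 19.4 to 21.5 in KO-8-homo tumors. Of 12 inflammasome genes, 3 were called higher in WT-young tumors (Nlrp3, Il1b and Mefv) and 2 in KO-1-hetero (Il1b and Mefv), with 0 lower in either, beside 13.7% and 6.93% of all genes called higher. Aim2, a DNA sensor, was at 23.7 to 31.2 FPKM in KO-8-homo tumors and 32.1 to 33.4 in WT-young tumors.

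The genes outside both families whose pattern was most like that of the 10 members were ranked by the Pearson correlation, over the 24 libraries, of their log2(FPKM + 1) with the mean of the members' standardised values. Gm12185 and Gm5431, named Irgb2b1 and Irgb9b8 in RefSeq, were left out as family members together with Ifi47. Of the 10 ranked highest, 9 are given. The first was Nlrc5, the activator of MHC class I genes, at 0.969, and the second the decoy receptor Il18bp at 0.959. Others were the chemokine Cxcl10 at 0.946, Ifit2 at 0.942, Cxcl9 at 0.936, the MHC genes H2-Q7 at 0.933 and H2-Q5 at 0.928, the chemokine Ccl4 at 0.928 and Parp9 at 0.925. Within the 14 tumors these 9 correlations were 0.78 to 0.90, and within the 10 normal libraries 0.25 to 0.87, so the values were lower within either tissue than over both. Nlrc5 was at 3.50, 2.42 and 1.97 FPKM in KO-8-homo tumors and at 2.77 in KO-1-hetero tumor 2, below the other 10 tumors (5.25 to 13.6). Outside that ranking, Tap1, the peptide transporter of antigen presentation, reached 0.97 in tumors and -0.31 in normal tissue. The T cell gene Cd3e had 0.15 in tumors, 0.55 in normal tissue and 0.49 over all 24 libraries. The macrophage gene Lyz2 had -0.53, 0.23 and 0.17. No value is given for the other markers of their lists, so these genes do not stand for their cell types.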

How the data were processed

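RNA-seq of tumor and normal colorectal tissue was deposited by the authors as 1 table of FPKM per library. Per the submitters' processing notes, TopHat2 2.1.1, Bowtie2 2.2.8, SAMtools 0.1.18 and Cuffdiff 2.2.1 were used with the mm10 build; the annotation and the division of shared fragments are not given in the sources used here. Libraries were made with a stranded kit, per the labels' protocols. Groups came from the titles. The members, lists and tests were chosen with earlier results of these data known.

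FPKM were transformed as log2(FPKM + 1), and 13799 genes with at least 1 FPKM in at least 4 libraries were kept. limma 3.58.1 (R 4.3.3; lmFit, contrasts.fit, eBayes with an intensity trend, two-sided) was fitted with 10 group means to all 24 libraries, and p-values were adjusted by Benjamini-Hochberg over all genes kept, threshold 0.05. The procedure was checked on simulated data. The depth in reads is unknown. Results for a gene withheld from this text are not reported here. Named genes were the 10 members, up to 4 genes a list by role or smallest adjusted p, and the 10 genes most like the members; Cxcl9, Isg15, Usp18, Irf7, Gbp4, Gbp9, 9930111J21Rik1, Gbp2b, Irgq and Tap1 were added after their values were seen. Promoter and coordinate data are from RefSeq, GRCm38.p6, and gene models from GENCODE. Figures were drawn with Python 3.11.15, pandas 2.3.3, numpy 2.4.6 and matplotlib 3.10.9. Alternatives were another pseudocount, no filter, another scaling, fewer libraries in the fit, no trend, a replicate block, a term for Xist, no WT-old libraries and each library left out.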

Additional observations from a re-analysis of the deposited data

Results flagged for a closer look

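Gbp2 in WT-young tumor 4 stood at 284 FPKM, far from the other 3 tumors of its group (107, 111 and 119 FPKM). It was the only outlier in the 10 groups of 4 libraries tested, 1 for each GTPase, where chance alone flags about 1 in 20. The 10 groups hold the same 4 tumors and genes that vary together, so they are not independent. Tumor 4 also had the highest mean log2(FPKM + 1) of the 10 GTPases among the 14 tumors, 5.44. Gbp2 was still called higher in WT-young tumors without this library.

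For 4 GTPases the zygosity contrast ran in opposite directions in the tissues: every KO-8-homo library lay below every KO-8-hetero library in tumors and above them in normal tissue. In KO-8-homo minus KO-8-hetero on the log2(FPKM + 1) scale, Gbp6 had -1.37 in tumors and 1.02 in normal tissue. Gbp7 had -1.23 and 0.85, Iigp1 had -2.76 and 0.32, and Irgm1 had -1.73 and 0.65. None of these normal-tissue differences was past the threshold by limma. Over all genes, 4.76% had the tumor pattern and 27.1% the normal one, and how many had both was not counted. In normal tissue Xist was high in both KO-8-hetero libraries and low in both KO-8-homo ones, so zygosity and Xist state cannot be told apart there. In tumors it was high in KO-8-hetero tumor 3 only. The difference between tissues was not tested, because the tumors had served to choose the genes, and nothing is read from it.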

How the results depend on the processing

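The 10 calls in WT-young kept their direction and their side of the threshold in every alternative, as did the 0 of 10 for the difference of changes and for KO-labelled against WT-labelled normal tissue. The tumor-normal count in KO-1-hetero went from 10 to 6 with only the groups compared and 0 to 10 over the libraries left out. Between KO-1-hetero and WT-young tumors, a description, Gbp2 as the only gene of the 10 past the threshold became 0 with only the groups compared, with the replicate block or with the Xist term, and 0 to 1 over the libraries left out. Zygosity in normal tissue gave 2 members with a pseudocount of 0.1, 1 with only the groups compared, 2 with the replicate block and 0 to 1 over the libraries left out. Signs reversed for Gbp5 (0.30) and Gbp7 (0.03) in KO-1-hetero against WT-young tumors without KO-1-hetero tumor 2; over the libraries left out Gbp5 ranged from -0.38 to 0.30 and Gbp7 from -0.45 to 0.03. Alternatives for the untested contrasts and for overlap counts were chosen after seeing the data; members apart in normal tissue by zygosity went from 4 to between 4 and 8 over the libraries left out. The cause of these changes was not tested.

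Counts over all genes moved more. KO-1-hetero against WT-young tumors went from 397 to 907 with only the groups compared, 177 with the replicate block, 110 with the Xist term and 15 to 349 over the libraries left out. KO-8-homo against KO-8-hetero normal tissue went from 1462 to 573 with only the groups compared, 630 with the Xist term and 56 to 4821. KO-labelled against WT-labelled normal tissue went from 7 to 13 with a pseudocount of 0.1, 17 with no filter, 4 with the replicate block, 0 with the Xist term, 1 without WT-old and 2 to 708. The difference of changes went from 2 to 9 with no filter, 1 with median-of-ratios scaling, 0 with only the groups compared, 5 with the replicate block, 17 with the Xist term, 9 without WT-old and 0 to 313. Tumor against normal in KO-1-hetero went from 1950 to 1142 with the replicate block, 322 with the Xist term and 55 to 1744, and in WT-young from 3604 to 2091 with the replicate block.

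The labels do not say what the replicate numbers share. Of the 8 same-numbered tumor and normal pairs with a value, 1 had deviations that correlated above 0.1 (range -0.16 to 0.35). In Xist, 4 of 9 such pairs differed. Between same-numbered tumors of different groups, 7 of 18 pairs were above 0.1 (range -0.22 to 0.53). Between normal libraries of different groups, 2 of 20 were (range -0.35 to 0.56). Whether same-numbered libraries share a batch is not known. Depth in reads is unknown, so low members such as Gbp7 below 1 FPKM in KO-8-hetero normal tissue are least certain.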
